A study of Homo sapiens with 15 samples.

Results

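The 10 genes described here belong to the Notch signalling pathway. They are the 4 receptors NOTCH1, NOTCH2, NOTCH3 and NOTCH4, the 3 ligands JAG1, JAG2 and DLL1, and the 3 target genes HES1, HEY1 and NRARP. They were taken by gene symbol from an expression table of 33158 genes, and all 10 were listed in it. Messenger RNA was sequenced from 3 established triple negative breast cancer cell lines, in 5 groups with 3 libraries each. SUM149PT and HCC1937 were each sorted into cancer stem cells (CSCs), defined by the surface phenotype CD44+/CD24-/low, and the remaining cells, called non-CSCs. SUM159PT was not sorted, and the study counts the whole line as CSCs, so it has no non-CSC counterpart here. The labels list no treatment, time course or introduced genetic change in any group. Each line is a single cell line, so a difference between lines carries no spread over lines. Nothing in the labels says that the 3 libraries of a group came from separate cultures, and p-values therefore measure the spread between these libraries, which may be technical.

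Levels are given as FPKM, which divide the fragments of a gene by its transcript length and by the library's mapped total, and can be set side by side between genes per length. The depth of each library is unknown, because FPKM do not hold it. Summed over all genes, the 12 sorted libraries held between 291276 and 366532 FPKM, against 634746 to 652082 in SUM159PT. Between 11249 and 11997 genes lay above 1 FPKM in a sorted library, against 8534 to 8670 in a SUM159PT library. Of 81 ribosomal protein genes, which every cell uses, 1 was listed at 0 in all libraries and 7 in at least 1. A gene at 0 is therefore described only as listed at 0.

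Notch receptors are membrane proteins that are activated when a Jagged or Delta-like ligand on a neighbouring cell binds them. ADAM proteases and then gamma-secretase cleave the bound receptor, and its intracellular domain moves to the nucleus, where it joins the DNA-binding protein RBPJ and Mastermind-like coactivators and switches on genes such as HES1, HEY1 and NRARP. In the mammary gland the pathway takes part in the upkeep of progenitor cells and in the choice of the luminal fate, and it has been studied in breast cancer stem cells for that reason.

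The labelled fractions were checked against their markers. In SUM149PT, transcripts of the sort marker CD24 lay between 7.61 and 7.97 FPKM in CSCs and between 134 and 147 FPKM in non-CSCs. In HCC1937 they lay between 22.5 and 23.9 FPKM in CSCs and between 141 and 167 FPKM in non-CSCs. CD24 was thus low in every library labelled CSC, and it was lowest in SUM159PT, at 0.682 to 0.759 FPKM. CD44 was at 82.9 to 86.8 FPKM in CSCs and 61.4 to 66.96 FPKM in non-CSCs of SUM149PT. In HCC1937 the CD44 ranges of 100.4 to 113 FPKM in CSCs and 95.1 to 102 FPKM in non-CSCs overlapped, and SUM159PT held 28.4 to 29.4 FPKM. Of the receptors that define triple negative tumours, PGR did not exceed 0.00303 FPKM and ESR1 did not exceed 1.86 FPKM in any library, while ERBB2 ran from 3.39 to 20.0 FPKM.

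Epithelial and mesenchymal markers also separated the fractions. The 6 epithelial markers (EPCAM, CDH1, KRT5, KRT14, KRT8 and KRT18) were all lower in CSCs of both lines. In SUM149PT they summed to 87.0, 92.6 and 89.0 FPKM in CSCs against 675, 675 and 682 FPKM in non-CSCs, with KRT18 the most abundant. In HCC1937 the sum was 634, 587 and 532 FPKM in CSCs against 1612, 1633 and 1399 FPKM in non-CSCs, and in SUM159PT it was 292, 277 and 291 FPKM. The SUM159PT sum was mostly KRT18 (153 FPKM) and KRT8 (132 FPKM), while EPCAM averaged 0.0467 and CDH1 0.0681 FPKM there. The 3 mesenchymal markers (VIM, ZEB1 and CDH2) were all higher in CSCs of both lines, with VIM by far the most abundant. They summed to 2037, 2215 and 2104 FPKM in CSCs and 229.7, 226 and 288 FPKM in non-CSCs of SUM149PT. The sums were 1048, 917 and 893 FPKM in CSCs and 129, 198 and 171 FPKM in non-CSCs of HCC1937, and 1094, 1084 and 1065 FPKM in SUM159PT. ZEB1 (0.204 FPKM) and CDH2 (2.86 FPKM) averaged less in SUM159PT than in any sorted group. In these bulk libraries, fewer cells of a type and less RNA per cell cannot be told apart, and the part of the epithelial and mesenchymal difference in the Notch values was not tested.

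Leukocyte and fibroblast markers were looked up as well. Among 3 leukocyte markers CD3E was listed at 0 in all 15 libraries, PTPRC did not exceed 0.0986 FPKM, and the sum was almost all CD68. That sum was 16.4, 16.2 and 16.0 FPKM in CSCs against 48.1, 47.0 and 49.9 FPKM in non-CSCs of SUM149PT, where CD68 was the 1 marker tested and fell. In HCC1937 it was 42.8, 44.3 and 40.0 FPKM against 41.4, 39.7 and 38.9 FPKM, with 0 of 1 tested markers called by limma, and in SUM159PT 30.5, 34.0 and 31.2 FPKM. Of the 3 fibroblast markers COL1A1, COL1A2 and PDGFRB, 2 were tested in each line and both were higher in CSCs. These summed to 225, 228 and 222 FPKM in CSCs against 46.9, 50.3 and 52.9 FPKM in non-CSCs of SUM149PT, mostly COL1A1. The sums were 12.1, 12.2 and 11.6 FPKM against 6.04, 7.21 and 7.78 FPKM in HCC1937, and 29.5, 32.1 and 33.5 FPKM in SUM159PT. None of the fibroblast markers was at 0 in all 3 libraries of any group, and the part of these cell type markers in the Notch values was not tested.

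Inside each sorted line the CSC fraction was set against the non-CSC fraction with limma on log2(FPKM + 0.1), for every gene whose mean reached 0.1 FPKM there. Called means a Benjamini-Hochberg adjusted p, over all genes tested, no larger than 0.05. In SUM149PT 8 of the 10 Notch genes passed the minimum, and JAG2, HES1 and HEY1 rose while NOTCH3, JAG1 and NRARP fell in CSCs. These 3 and 3 of 8 compare with 33.3% of all 16037 tested genes that rose and 41.5% that fell. In HCC1937 9 passed, NOTCH4 through 1 library alone, and NOTCH2 and HEY1 rose while NOTCH3, JAG1, JAG2, HES1 and NRARP fell. These 2 and 5 of 9 compare with 10.3% of 15582 tested genes that rose and 15.3% that fell.

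The median log2 fold change of the Notch genes was 0.07 in SUM149PT, against −0.11 over all genes tested, and −0.22 in HCC1937, against −0.03 over all genes. Over the 8 genes tested in both lines, without NOTCH4, the HCC1937 median was −0.39. Of the 8 Notch genes tested in both lines, 6 were called in both, 4 of them in the same direction (NOTCH3, JAG1 and NRARP lower, HEY1 higher) and 2 in opposite directions (JAG2 and HES1). Over all 14423 genes tested in both lines, 3157 were called in both, 2315 in the same direction and 842 in opposite directions. The split of all calls depended on the scaling. In SUM149PT 44.6% of the calls were higher in CSCs, and 54.9% after quantile normalization, which moved the median of all genes from −0.11 to 0.10. In HCC1937 40.3% were higher, against 54.3% after rescaling to TPM, which moved the median from −0.03 to 0.09, and 53.0% after quantile normalization. For single genes an exact permutation test of mean FPKM (two-sided) gave p = 0.10, the smallest that 3 against 3 libraries allow, for 6 of 8 genes in SUM149PT and 7 of 9 in HCC1937. That p says only that the fractions of a line did not overlap. The share of all genes without overlap was not computed, so these counts say nothing particular of the Notch genes.

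**Figure D1:**
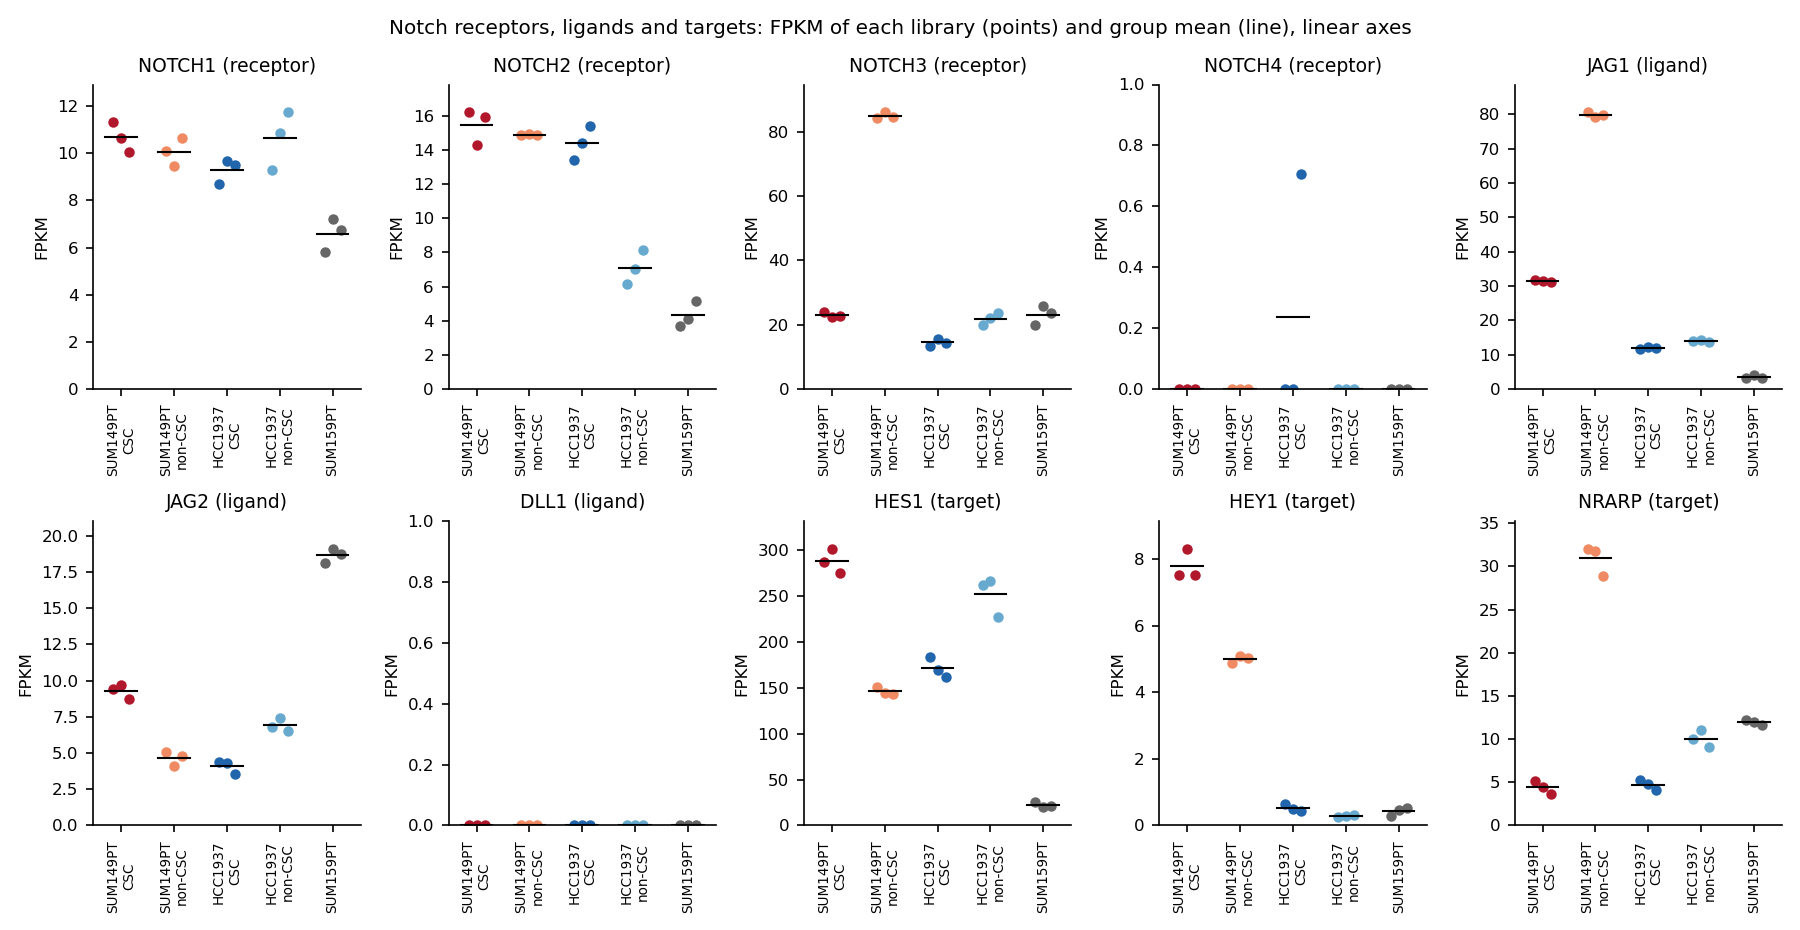
FPKM of the 10 Notch genes (y axis, linear, from 0) in the 5 groups (x axis, colours), with 1 point per library and a line at the group mean of 3 libraries, and 1 panel per gene with its role in brackets. NOTCH3, JAG1 and NRARP stand highest in SUM149PT non-CSCs, JAG2 in SUM159PT, HES1 and HEY1 in SUM149PT CSCs, while DLL1 lies at 0 in all 15 libraries and NOTCH4 in 14 of them.

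Among the receptors, NOTCH3 carried the largest difference between the fractions of SUM149PT. It lies on the reverse strand of chromosome 19 from 15159038 to 15200995 (GRCh38.p14, RefSeq) and encodes a receptor with a short intracellular activation domain, best known from vascular smooth muscle. In SUM149PT its level was 23.9, 22.2 and 22.8 FPKM in CSCs and 84.2, 86.0 and 84.6 FPKM in non-CSCs. All 3 CSC libraries lay far below all 3 non-CSC libraries, with little spread inside either fraction. The mean was 3.70-fold lower in CSCs, a log2 fold change of −1.88 (SE 0.055, limma adjusted p = 3.58e-06). In HCC1937 NOTCH3 stood at 13.5, 15.6 and 14.4 FPKM in CSCs and 19.8, 22.0 and 23.6 FPKM in non-CSCs. The fractions again did not overlap, and every CSC library was the lower. There the mean was 1.51-fold lower, a log2 fold change of −0.59 (SE 0.098, limma adjusted p = 0.00892), a call that was lost after TPM rescaling (−0.46, adjusted p = 0.0759) and with each library's trend on the GC content of genes removed, a setting chosen after seeing the data (−0.35, 0.0817). The decrease was larger in SUM149PT than in HCC1937 by the interaction term (−1.30 on the log2 scale, limma adjusted p = 4.45e-06). In SUM159PT NOTCH3 was at 19.8, 25.8 and 23.5 FPKM, overlapping with SUM149PT CSCs and HCC1937 non-CSCs. Ordered by mean FPKM, SUM149PT non-CSCs (85.0) stood clear of the rest, SUM159PT (23.0), SUM149PT CSCs (23.0) and HCC1937 non-CSCs (21.8) overlapped as neighbours, and HCC1937 CSCs (14.5) were lowest.

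NOTCH2 differed between the fractions of HCC1937. It encodes a widely expressed receptor and lies on the reverse strand of chromosome 1 from 119911553 to 120069662. In HCC1937 its level was 13.4, 14.4 and 15.4 FPKM in CSCs and 6.18, 7.004 and 8.13 FPKM in non-CSCs. Each CSC library was well above each non-CSC library. The mean was 2.03-fold higher in CSCs, a log2 fold change of 1.02 (SE 0.12, limma adjusted p = 0.00273). In SUM149PT the values of 16.2, 14.3 and 15.9 FPKM in CSCs and 14.9, 14.9 and 14.9 FPKM in non-CSCs overlapped. The log2 fold change of 0.05 was not called there (SE 0.067, limma adjusted p = 0.507), and the effect in SUM149PT lay below that in HCC1937 by −0.96 in the interaction test (limma adjusted p = 0.000195). SUM159PT held the lowest values, 3.70, 4.09 and 5.13 FPKM. By mean FPKM, SUM149PT CSCs (15.5), SUM149PT non-CSCs (14.9) and HCC1937 CSCs (14.4) overlapped, followed without overlap by HCC1937 non-CSCs (7.10) and SUM159PT (4.31). The near-identical copy NOTCH2NL was listed at 0 in all 15 libraries, and fragments from it could not be told apart from those of NOTCH2 if both were transcribed.

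NOTCH1, the receptor mutated in T-cell leukaemia, differed little between the sorted groups. It lies on the reverse strand of chromosome 9 from 136494433 to 136546048. Its level was 11.3, 10.7 and 10.04 FPKM in CSCs and 10.1, 9.45 and 10.6 FPKM in non-CSCs of SUM149PT. HCC1937 held 8.70, 9.67 and 9.51 FPKM in CSCs and 9.29, 10.9 and 11.7 FPKM in non-CSCs. The fractions overlapped in both lines. The log2 fold changes of 0.09 in SUM149PT (SE 0.076, limma adjusted p = 0.34) and −0.19 in HCC1937 (SE 0.11, limma adjusted p = 0.268) were not called. Exact permutation tests gave p = 0.4 and 0.3. With that GC trend removed, NOTCH1 and NOTCH2 were called higher in CSCs of SUM149PT, at 0.64 (limma adjusted p = 0.000457) and 0.27 (limma adjusted p = 0.00982). The interaction of 0.27 for NOTCH1 was not called (limma adjusted p = 0.0983), although it was called with replicate 1 of HCC1937 non-CSCs left out (0.37, adjusted p = 0.0208) and with the GC trend removed (0.58, 0.00834). SUM159PT held the lowest NOTCH1 level, at 5.80, 7.23 and 6.73 FPKM. In the order of means, SUM149PT CSCs (10.7), HCC1937 non-CSCs (10.6), SUM149PT non-CSCs (10.1) and HCC1937 CSCs (9.29) overlapped as neighbours, and SUM159PT (6.59) lay below them without overlap.

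NOTCH4, a receptor mostly of endothelial cells, was listed at 0 in 14 of 15 libraries and at 0.706 FPKM in replicate 3 of HCC1937 CSCs. It lies on the reverse strand of chromosome 6 from 32194843 to 32224067 and overlaps the gene GPSM3. The single value above 0 carried it past the minimum in HCC1937, where it was not called (limma adjusted p = 0.442). GPSM3 was listed at 7.05, 4.02 and 1.22 FPKM in SUM149PT non-CSCs and at 0 in every other library. No fold change is given for NOTCH4 because the compared group was at 0.

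The receptors' shares of their summed FPKM shifted with these levels. NOTCH1 to NOTCH4 summed to 51.5, 47.2 and 48.7 FPKM in CSCs of SUM149PT and 109, 110.4 and 110.1 FPKM in its non-CSCs. NOTCH3 made up 46.4%, 47.1% and 46.7% of that sum in CSCs and 77.1%, 77.9% and 76.8% in non-CSCs. It was the largest share in both fractions, and NOTCH2 came next. In HCC1937 the sums of 35.6, 39.6 and 40.0 FPKM in CSCs and 35.3, 39.9 and 43.5 FPKM in non-CSCs overlapped, while the make-up differed. NOTCH2 held 37.6%, 36.3% and 38.5% in CSCs and 17.5%, 17.6% and 18.7% in non-CSCs, and NOTCH3 held 37.9%, 39.3% and 35.9% against 56.1%, 55.1% and 54.3%. The share of NOTCH2 was thus larger, and that of NOTCH3 smaller, in every CSC library of either sorted line than in any non-CSC library of that line. In SUM149PT the level of NOTCH2 itself was not called different as deposited (15.5 FPKM in CSCs, 14.9 FPKM in non-CSCs), while the receptor sum was lower in CSCs. In SUM159PT NOTCH2 held 12.6%, 11.01% and 14.5% and NOTCH3 67.5%, 69.5% and 66.5% of the receptor sum as deposited. As the transcripts differ in GC content (49.4% and 63.1%) and SUM159PT differs from the sorted lines along it, these shares do not place SUM159PT nearer CSCs or non-CSCs.

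**Figure D2:**
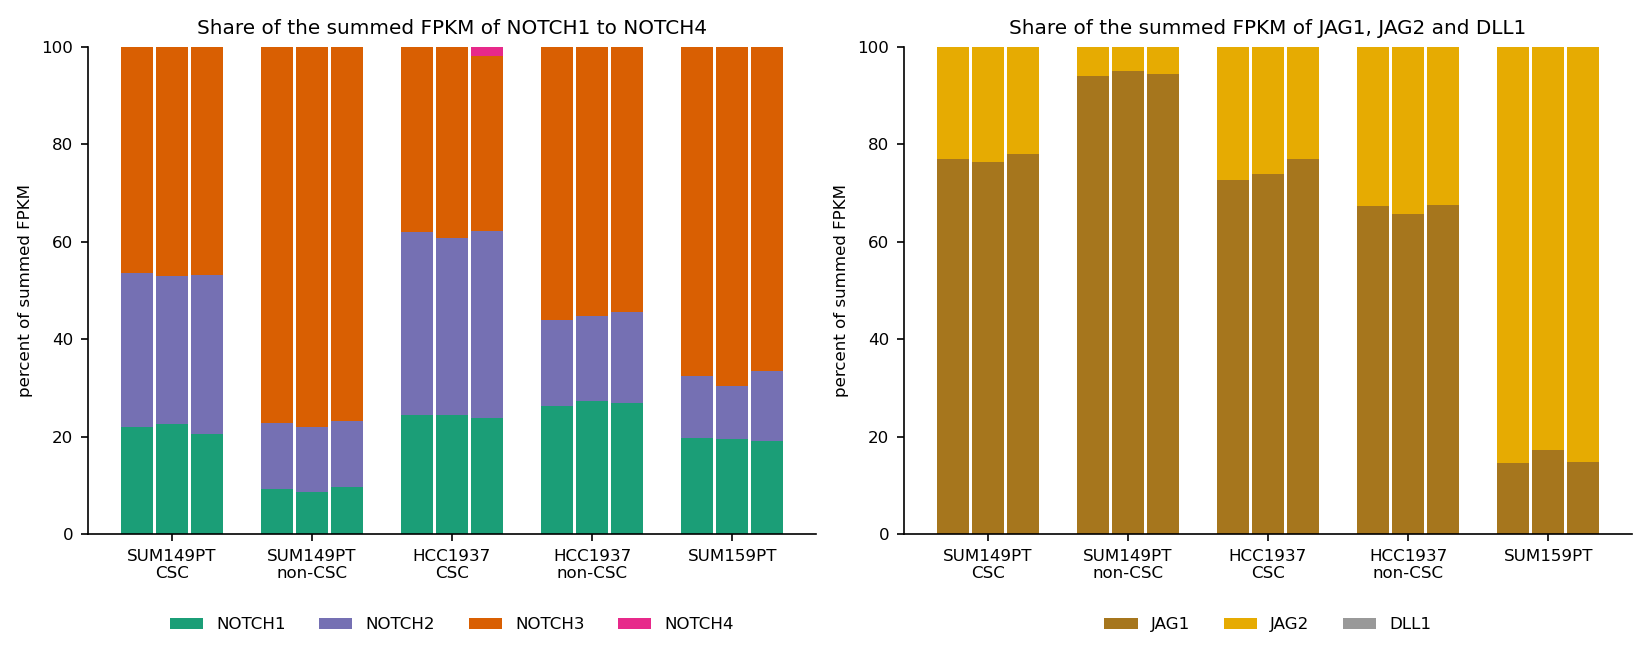
Share (y axis, percent) of each receptor in the summed FPKM of NOTCH1 to NOTCH4 (left) and of each ligand in the summed FPKM of JAG1, JAG2 and DLL1 (right), with 1 bar per library, grouped by cell line and fraction on the x axis. NOTCH3 takes about 77% of the receptor sum in SUM149PT non-CSCs, and JAG2 takes 82.8% to 85.3% of the ligand sum in SUM159PT, while JAG1 leads in all 12 sorted libraries.

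JAG1 was the more abundant Jagged ligand per length in all 12 sorted libraries. It encodes a membrane ligand of the Notch receptors and lies on the reverse strand of chromosome 20 from 10637684 to 10673999. In SUM149PT its level was 31.6, 31.4 and 31.1 FPKM in CSCs and 80.7, 79.2 and 79.7 FPKM in non-CSCs. The libraries of a fraction lay within a few percent of each other, and all CSC libraries were lower. The mean was 2.54-fold lower in CSCs, a log2 fold change of −1.34 (SE 0.049, limma adjusted p = 6.45e-06). In HCC1937 JAG1 was at 11.6, 12.2 and 12.02 FPKM in CSCs and 13.96, 14.3 and 13.6 FPKM in non-CSCs. These values lay close together, with each CSC library a little below each non-CSC library. The log2 fold change of −0.22 (SE 0.062, limma adjusted p = 0.0484) just passed the threshold. It lost the call when any 1 of the 6 libraries was left out (limma adjusted p from 0.0881 to 0.156), without a minimum level (0.0641), and after upper quartile (0.136), quantile (0.133) or TPM scaling (0.467) or removal of the GC trend (0.168). The interaction term put the effect in SUM149PT lower by −1.12 (limma adjusted p = 4.01e-07). SUM159PT held the least JAG1, at 3.12, 3.98 and 3.23 FPKM. No neighbours overlapped in the order of group means, from SUM149PT non-CSCs (79.8 FPKM) and CSCs (31.4) through HCC1937 non-CSCs (13.9) and CSCs (11.9) to SUM159PT (3.44).

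JAG2, the other Jagged ligand, moved in opposite directions in the sorted lines. It lies on the reverse strand of chromosome 14 from 105140995 to 105168776. In SUM149PT it was at 9.40, 9.70 and 8.74 FPKM in CSCs and 5.06, 4.09 and 4.76 FPKM in non-CSCs, and in HCC1937 at 4.35, 4.28 and 3.58 FPKM in CSCs and 6.78, 7.43 and 6.52 FPKM in non-CSCs. All 3 CSC libraries were higher in the former line and all 3 were lower in the latter. The log2 fold change was 0.99 in SUM149PT (SE 0.097, limma adjusted p = 0.000239), a 2.00-fold higher mean in CSCs, and 1.54 with the GC trend removed. In HCC1937 it was −0.75 (SE 0.10, limma adjusted p = 0.00477), a 1.70-fold lower mean. The difference between the lines was 1.74 by the interaction term (limma adjusted p = 4.14e-06). SUM159PT held the most JAG2, at 18.2, 19.1 and 18.7 FPKM. By mean FPKM it was followed without overlap by SUM149PT CSCs (9.28) and HCC1937 non-CSCs (6.91), and then by SUM149PT non-CSCs (4.64) and HCC1937 CSCs (4.07), which overlapped.

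The delta-like ligand DLL1 was listed at 0 in all 15 libraries. It lies on chromosome 6 from 170282206 to 170291078 and overlaps FAM120B, which was also listed at 0 in all 15 libraries, so whether DLL1 was transcribed cannot be told from the table. Summed over JAG1, JAG2 and DLL1, the ligand level was 41.01, 41.1 and 39.8 FPKM in CSCs and 85.7, 83.3 and 84.5 FPKM in non-CSCs of SUM149PT. HCC1937 held 16.0, 16.4 and 15.6 FPKM in CSCs and 20.7, 21.7 and 20.1 FPKM in non-CSCs. The sum was lower in each CSC library of either line. JAG1 made up 77.1%, 76.4% and 78.1% of it in CSCs and 94.1%, 95.1% and 94.4% in non-CSCs of SUM149PT. In HCC1937 the order was the other way round, with 72.7%, 73.9% and 77.1% in CSCs and 67.3%, 65.8% and 67.6% in non-CSCs. In SUM159PT JAG1 made up 14.7%, 17.2% and 14.7% of a sum of 21.3, 23.1 and 22.0 FPKM.

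HES1, a basic helix-loop-helix repressor switched on by Notch and by other pathways, was the most abundant of the 10 genes per length in all 12 sorted libraries. It lies on the forward strand of chromosome 3 from 194136148 to 194138732. In SUM149PT its level was 287, 302 and 275 FPKM in CSCs and 151, 145 and 144 FPKM in non-CSCs, and in HCC1937 183, 169 and 162 FPKM in CSCs and 262, 267 and 228 FPKM in non-CSCs. Every CSC library was higher in SUM149PT and every CSC library was lower in HCC1937. The log2 fold change was 0.97 in SUM149PT (SE 0.061, limma adjusted p = 3.9e-05), a 1.97-fold higher mean. It was −0.56 in HCC1937 (SE 0.094, limma adjusted p = 0.00953), a 1.47-fold lower mean. The effects differed by 1.53 in the interaction test (limma adjusted p = 1.42e-06). In SUM159PT HES1 was at 25.3, 20.5 and 20.8 FPKM, within the range of NOTCH3 there. No neighbours overlapped in the order of mean FPKM, which ran SUM149PT CSCs (288), HCC1937 non-CSCs (252), HCC1937 CSCs (171), SUM149PT non-CSCs (146) and SUM159PT (22.2).

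NRARP encodes a small ankyrin repeat protein that is induced by Notch and dampens it by binding the receptor's intracellular domain. It lies on the reverse strand of chromosome 9 from 137299631 to 137302271. In SUM149PT its level was 5.14, 4.50 and 3.65 FPKM in CSCs and 32.1, 31.8 and 28.9 FPKM in non-CSCs. The CSC libraries lay far below the others, the widest fold difference among the Notch genes in that line. The mean was 6.98-fold lower in CSCs, a log2 fold change of −2.79 (SE 0.13, limma adjusted p = 1.52e-05). In HCC1937 NRARP was at 5.26, 4.74 and 4.05 FPKM in CSCs and 9.99, 10.99 and 9.10 FPKM in non-CSCs. It was again lower in all 3 CSC libraries, and the CSC levels of the lines overlapped. The mean was 2.14-fold lower, a log2 fold change of −1.09 (SE 0.13, limma adjusted p = 0.00244), and the interaction term was −1.70 (limma adjusted p = 3.26e-05). SUM159PT held 12.3, 12.02 and 11.7 FPKM. The order of means was SUM149PT non-CSCs (30.9), SUM159PT (11.99), HCC1937 non-CSCs (10.03) and then HCC1937 CSCs (4.68) and SUM149PT CSCs (4.43), of which only the last neighbours overlapped.

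HEY1, a repressor related to HES1 and known from the developing heart and vessels, had the lowest level of the 3 targets in every group but SUM149PT CSCs, where NRARP was lower. In SUM149PT it was at 7.52, 8.32 and 7.54 FPKM in CSCs and 4.89, 5.09 and 5.02 FPKM in non-CSCs. In HCC1937 it was at 0.641, 0.502 and 0.443 FPKM in CSCs and 0.238, 0.275 and 0.303 FPKM in non-CSCs. Each CSC library was higher than each non-CSC library in both lines, and all HCC1937 values were under 1 FPKM. The log2 fold change was 0.63 in SUM149PT (SE 0.064, limma adjusted p = 0.000279), a 1.56-fold higher mean. It was 0.75 in HCC1937 (SE 0.14, limma adjusted p = 0.0129), a 1.94-fold higher mean, and 0.26 (limma adjusted p = 0.0298) with a pseudocount of 1, which weighs on values this low. The interaction of −0.12 was not called (limma adjusted p = 0.534), and its sign turned with a pseudocount of 1 (0.29, adjusted p = 0.0102) and without replicate 1 of HCC1937 CSCs (0.01, adjusted p = 0.972). SUM159PT held 0.298, 0.474 and 0.518 FPKM. SUM149PT CSCs (7.79) and non-CSCs (5.0) led the order of mean FPKM without overlap, and HCC1937 CSCs (0.529), SUM159PT (0.430) and HCC1937 non-CSCs (0.272) overlapped as neighbours.

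**Figure D3:**
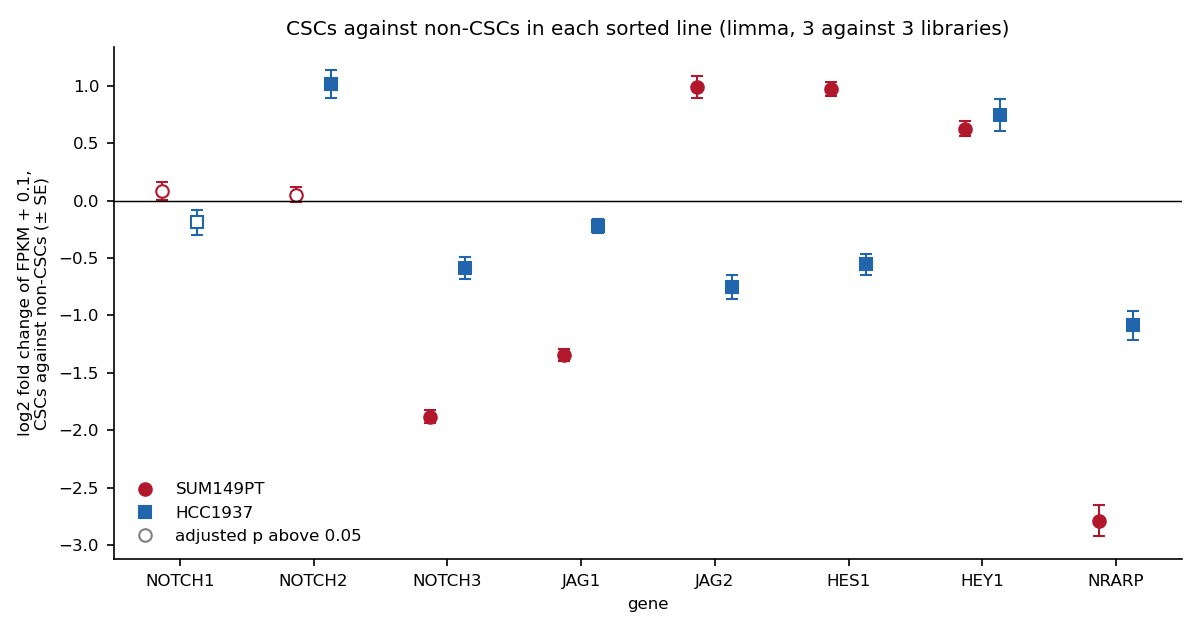
Log2 fold change of FPKM + 0.1 between CSCs and non-CSCs (y axis, with standard errors from limma on 3 against 3 libraries) for the 8 Notch genes tested in both lines (x axis). Circles are SUM149PT, squares are HCC1937, and open symbols have an adjusted p above 0.05; JAG2 and HES1 lie above 0 in SUM149PT and below 0 in HCC1937, while NOTCH3, JAG1 and NRARP lie below 0 and HEY1 above 0 in both.

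The promoters of HES1 and NRARP are shown because these targets moved in opposite directions in SUM149PT and in the same direction in HCC1937. Windows of 250 bases before the annotated start were taken from RefSeq (GRCh38.p14), and such windows were at hand for 8 of the 10 genes (all but DLL1 and HEY1). The HES1 window is chr3:194135898-194136147 on the forward strand, and the NRARP window is chr9:137302272-137302521 on the reverse strand. Both are written 5′ to 3′ along the gene, and capitals mark TGGGAA, the core of the sequence that RBPJ binds, the 1 motif searched, on both strands.
HES1: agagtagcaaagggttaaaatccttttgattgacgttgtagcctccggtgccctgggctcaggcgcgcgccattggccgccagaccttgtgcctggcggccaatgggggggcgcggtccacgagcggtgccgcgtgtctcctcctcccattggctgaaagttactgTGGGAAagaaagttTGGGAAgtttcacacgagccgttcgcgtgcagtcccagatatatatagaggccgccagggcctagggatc
NRARP: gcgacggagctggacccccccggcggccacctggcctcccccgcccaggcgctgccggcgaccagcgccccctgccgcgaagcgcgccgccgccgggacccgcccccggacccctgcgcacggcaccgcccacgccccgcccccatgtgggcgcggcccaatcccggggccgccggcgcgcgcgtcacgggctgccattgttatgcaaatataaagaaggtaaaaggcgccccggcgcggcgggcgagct
HES1 held 2 matches on the forward strand, from 84 to 79 and from 70 to 65 bases before the start. The other 7 Notch genes with a window held 0 matches. Over all promoters of the same length, 7321 of 35116 windows (20.8%) held the motif. A match is a description of letters, not a site or a cause, and no match says only that these letters are not in the window. The NRARP window was 78.4% G and C, against 59.2% for HES1.

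The difference of the CSC effect between the lines was called for 6 of the 8 Notch genes tested, where 61.1% of all 16451 genes tested were called. NOTCH2, NOTCH3, JAG1 and NRARP had the lower log2 fold change in SUM149PT, and JAG2 and HES1 the higher. The median of the 8 genes was −0.54, against −0.08 over all genes, a value that quantile normalization moved to 0.06. The share of Notch genes called was near that of all genes.

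Levels were also compared between the lines within a fraction, in a limma fit over all 15 libraries. Between CSCs, 5 of 8 Notch genes tested were called, where 76.9% of all 16373 genes were, and all 5 were lower in HCC1937. Over all genes, 7391 were called higher and 5200 lower in HCC1937. The share of calls that were higher, 58.7%, became 51.9% after quantile normalization. HEY1 stood apart, at 0.443 to 0.641 FPKM in HCC1937 and 7.52 to 8.32 FPKM in SUM149PT. That was a 14.7-fold lower mean in HCC1937 CSCs, a log2 fold change of −3.66 (limma adjusted p = 2.88e-10). JAG1 was lower by −1.39 (limma adjusted p = 4.6e-09), JAG2 by −1.17 (1.64e-07), HES1 by −0.75 (8.31e-06) and NOTCH3 by −0.66 (4.24e-05), each in all 3 libraries. NOTCH1, NOTCH2 and NRARP were not called, with log2 differences of −0.20, −0.10 and 0.08 (limma adjusted p = 0.0949, 0.446 and 0.553). NOTCH1 was called lower in HCC1937 after upper quartile scaling (−0.36, limma adjusted p = 0.00697), quantile normalization (−0.43, 0.00319) and removal of the GC trend (−0.53, 0.000877). NOTCH2 was called lower after quantile normalization (−0.33, limma adjusted p = 0.0272), and NRARP turned to −0.08 after upper quartile scaling and −0.06 after quantile normalization. The median of the Notch genes was −0.71, against 0.22 over all genes, which upper quartile scaling moved to 0.06 and quantile normalization to 0.05.

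Between non-CSCs, 7 of 8 Notch genes were called, where 76.8% of all 16373 genes were. JAG1 and HEY1 showed the widest gaps. JAG1 was at 13.6 to 14.3 FPKM in HCC1937 against 79.2 to 80.7 FPKM in SUM149PT, a log2 fold change of −2.51 (limma adjusted p = 2.67e-11) and a 5.73-fold lower mean. HEY1 was 18.4-fold lower in HCC1937, at −3.78 (limma adjusted p = 2.68e-10), or −2.24 with a pseudocount of 1, given its level of 0.238 to 0.303 FPKM. NOTCH3 was lower by −1.96 (limma adjusted p = 1.69e-09), NRARP by −1.62 (9.62e-08) and NOTCH2 by −1.07 (4.05e-06), in all 3 libraries each. HES1 and JAG2 were higher in HCC1937 non-CSCs, by 0.78 (limma adjusted p = 5.86e-06) and 0.57 (0.000138). HES1 and JAG2 were thus lower in HCC1937 among CSCs and higher among non-CSCs. NOTCH1, at 0.08 (limma adjusted p = 0.516), was not called and its sign turned under TPM, upper quartile and quantile scaling. The median of the Notch genes was −1.34, against 0.09 over all genes and −0.07 after TPM rescaling.

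Unsorted SUM159PT differed from the CSCs of both sorted lines in most Notch genes, a share near that of all genes. Against SUM149PT CSCs 7 of 8 were called, where 81.7% of all 16373 genes were, and against HCC1937 CSCs 7 of 8, where 84.8% were. HES1 was at 20.5 to 25.3 FPKM in SUM159PT, against at least 162 FPKM in any CSC library of the sorted lines. Its log2 difference was −3.70 from SUM149PT CSCs (limma adjusted p = 7.6e-13, 12.99-fold lower) and −2.95 from HCC1937 CSCs (limma adjusted p = 4.73e-12, 7.73-fold lower). JAG1 was lower by −3.16 (limma adjusted p = 7.1e-13) and −1.77 (1.45e-10), and NOTCH2 by −1.83 (1.04e-08) and −1.73 (1.81e-08). HEY1 was lower than in SUM149PT CSCs by −3.92 (limma adjusted p = 4.85e-11), or −2.45 after quantile normalization. JAG2 and NRARP were the genes that stood higher in SUM159PT in both comparisons. JAG2 was 2.01-fold higher than in SUM149PT CSCs (1.002 on the log2 scale, limma adjusted p = 4.67e-07) and 4.59-fold higher than in HCC1937 CSCs (2.18, limma adjusted p = 1.41e-10). NRARP was higher by 1.43 (limma adjusted p = 1.75e-07) and 1.35 (3.12e-07).

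Part of this order depended on the scaling. The FPKM sums of SUM159PT were far larger than those of the sorted lines, and their part in this was not tested. Against SUM149PT CSCs the median log2 difference of all genes was −0.60, with 34.7% of the calls higher in SUM159PT. It was −1.44 after TPM rescaling (16.9% higher) and 0.06 after quantile normalization (50.6% higher), and upper quartile scaling gave 50.4% higher. Against HCC1937 CSCs the median of −0.85 (32.5% higher) became −1.64 after TPM rescaling (17.0%), 0.00 after upper quartile scaling (50.8%) and 0.02 after quantile normalization (50.1%). The medians of the 8 Notch genes were −1.26 and −0.38. HES1, JAG1 and NOTCH2 were lower, and NRARP higher, under every scaling tried, but the sizes varied. Against HCC1937 CSCs the TPM and upper quartile values were 0.36 and 2.47 for NRARP, −2.74 and −0.62 for NOTCH2 and −2.78 and −0.66 for JAG1. HES1 went to −1.82 in that comparison after upper quartile scaling. JAG2 lost its excess over SUM149PT CSCs after TPM rescaling (−0.08, limma adjusted p = 0.372) but not over HCC1937 CSCs. Against HCC1937 CSCs, JAG2 was at 1.19 after TPM rescaling and 3.30 after upper quartile scaling. NOTCH1 was lower by −0.69 and −0.49 as deposited (limma adjusted p = 3.37e-05 and 0.000587) and higher by 0.26 and 0.62 after upper quartile scaling (0.035 and 0.0001). After quantile normalization NOTCH1 was not called against SUM149PT CSCs (−0.11, limma adjusted p = 0.365) and was higher than in HCC1937 CSCs (0.32, 0.0163).

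NOTCH3 did not differ from SUM149PT CSCs beyond the spread (−0.00, limma adjusted p = 0.995) as deposited. It was lower by −1.09 after TPM rescaling (limma adjusted p = 5.65e-06) and higher by 0.96 after upper quartile scaling (1.05e-06). Against HCC1937 CSCs it was higher by 0.66 (limma adjusted p = 3.25e-05), and lower by −0.34 after TPM rescaling (0.0286). HEY1 was not called against HCC1937 CSCs (−0.26, limma adjusted p = 0.131), was called lower without replicate 3 of SUM159PT (−0.38, adjusted p = 0.0404), and was called lower after TPM rescaling (−1.20, 2.34e-05). It turned to 0.70 and 1.38 after upper quartile and quantile scaling (limma adjusted p = 0.000783 and 1.4e-06). For NOTCH1 and NOTCH3, and for HEY1 against HCC1937 CSCs, a direction between SUM159PT and the sorted CSCs holds only for the scaling named.

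The difference of SUM159PT from the sorted CSCs also followed the GC content of transcripts. Across genes, which are not independent replicates, Spearman's rho between GC content and the log2 difference was 0.593 against SUM149PT CSCs and 0.512 against HCC1937 CSCs. For the comparisons within a line it was −0.141 in SUM149PT and −0.180 in HCC1937. Among the Notch genes, JAG2 (64.0% G and C) and NRARP (67.3%) were higher in SUM159PT, and HES1 (49.9%), JAG1 (49.6%), NOTCH2 (49.4%) and, against SUM149PT CSCs, HEY1 (47.3%) were lower. NOTCH1 (62.9%) was lower, and NOTCH3 (63.1%) did not differ from SUM149PT CSCs. The part of GC content in these values was not tested. With the trend on GC content removed, which was chosen after seeing the data, JAG2 was higher than in SUM149PT CSCs by 0.39 (limma adjusted p = 0.000522) and NRARP by 0.78 (1.29e-05). HES1 was lower by −3.25 and JAG1 by −2.65. NOTCH1 was then lower by −1.28 and −0.75 than in the CSCs of SUM149PT and HCC1937, a larger gap than as deposited. Against HCC1937 CSCs the gaps shrank to −1.07 for NOTCH2, −1.14 for JAG1 and 0.40 for NOTCH3. NOTCH3 became lower than in SUM149PT CSCs, at −0.59 (limma adjusted p = 0.000237), and HEY1 became higher than in HCC1937 CSCs, at 0.78 (0.000213).

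Another 50 genes of the Notch pathway, from the proteases and glycosyltransferases to nuclear partners and other HES and HEY genes, were counted in the same fits. In SUM149PT 46 were tested, 17 rose, 19 fell and 10 were not called, with a median log2 fold change of −0.09. In HCC1937 45 were tested, 4 rose, 10 fell and 31 were not called, with a median of 0.08. The share called was close to that of all genes in both lines. By role, the nuclear complex that binds the receptor's intracellular domain had 6 of 7 genes higher and 0 lower in CSCs of SUM149PT, and 1 of 6 higher and 0 lower in HCC1937. Over all genes tested, 33.3% rose and 41.5% fell in SUM149PT, and 10.3% rose and 15.3% fell in HCC1937. The 5 glycosyltransferases, which set how receptors respond to Delta-like or Jagged ligands, had 2 higher and 3 lower in SUM149PT and 1 of each in HCC1937. Of the 6 gamma-secretase subunits 1 was higher and 2 were lower in SUM149PT, and 1 of each in HCC1937.

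Of the pathway genes tested in both lines (44), 11 were called in both, 6 in the same direction and 5 in opposite directions, where all 14423 genes gave 3157, 2315 and 842. RBPJ, the DNA-binding partner, was at 16.8 to 18.1 FPKM in CSCs and 9.11 to 9.48 FPKM in non-CSCs of SUM149PT, and at 16.0 to 16.7 against 12.5 to 12.9 FPKM in HCC1937. It was higher in all CSC libraries of both lines, by 0.90 in SUM149PT (limma adjusted p = 4.2e-05) and 0.37 in HCC1937 (0.00818), the latter not called in a fit over all 15 libraries (adjusted p = 0.107). HES2, a relative of HES1, stood at 0.285 to 0.462 FPKM in CSCs against 10.3 to 11.6 FPKM in non-CSCs of SUM149PT and at 0.373 to 0.452 against 3.63 to 4.002 FPKM in HCC1937. Its decrease was the largest of the pathway list in both lines, −4.52 (limma adjusted p = 4.77e-06) and −2.94 (0.000128). DTX4, of the deltex family of ubiquitin ligases, was lower by −2.44 in SUM149PT and −1.74 in HCC1937 (limma adjusted p = 5.66e-06 and 0.000223). The fringe glycosyltransferase MFNG was lower by −2.54 and −1.06 (limma adjusted p = 2.95e-05 and 0.00117). Each of these 3 was lower in all CSC libraries, and a pseudocount of 1 shrank MFNG in SUM149PT to −1.24 and HES2 in HCC1937 to −1.78.

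FURIN, which processes the receptors on their way to the surface, was lower by −0.43 in SUM149PT (limma adjusted p = 0.000447) and −0.40 in HCC1937 (0.0346). NEURL1B, a ubiquitin ligase of ligands, was lower by −0.99 (limma adjusted p = 0.00012) and −0.30 (0.0217). The size for NEURL1B in SUM149PT shrank to −0.49 with the GC trend removed, −0.54 after quantile normalization and −0.55 with a pseudocount of 1. Both calls in HCC1937 were fragile. FURIN lost its call there under TPM, upper quartile and quantile scaling and when any of 5 libraries was left out (limma adjusted p up to 0.0995, all but replicate 2 of CSCs), and with the GC trend removed it lost the call in HCC1937 (0.255) and its sign turned in SUM149PT (0.12). NEURL1B lost its call in HCC1937 after TPM rescaling (0.209), with the GC trend removed (0.343) and without replicate 2 or 3 of either fraction (up to 0.0872).

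The 5 pathway genes with opposite directions were DNER, APH1B, NEURL1, POFUT1 and DTX3L. DNER, a non-canonical ligand, was at 1.75 to 2.81 FPKM in CSCs and 23.9 to 25.2 FPKM in non-CSCs of SUM149PT, and at 5.03 to 5.67 against 1.31 to 1.90 FPKM in HCC1937. It was lower in every CSC library of the first line and higher in every CSC library of the other. The log2 fold changes were −3.40 (limma adjusted p = 1.69e-05) and 1.75 (0.000859). APH1B, a gamma-secretase subunit, had −1.26 and 0.86 (limma adjusted p = 0.000152 and 0.0128), the former −0.76 with a pseudocount of 1. NEURL1, a ubiquitin ligase of ligands, had 0.82 and −1.69 (limma adjusted p = 0.00697 and 0.000579), with less than 0.2 FPKM in SUM149PT. It passed the minimum there only through CSCs (0.176 against 0.0591 FPKM on average), so its place among these 5 rests on values near the minimum. There pseudocounts of 1 and 0.01 gave 0.15 and 1.58, and removal of the GC trend gave 1.37. POFUT1, the enzyme that adds fucose to receptors, had −0.21 and 0.65 (limma adjusted p = 0.0136 and 0.00103), and lost the call in SUM149PT after TPM (0.116), upper quartile (0.115) and quantile scaling (0.139), with a turned sign once the GC trend was removed (0.03). DTX3L, of the deltex family, had 0.28 and −0.39 (limma adjusted p = 0.0201 and 0.0192). Its call was lost without replicate 1 of SUM149PT CSCs (0.0588) or replicate 1 (0.0552) or 3 (0.0579) of SUM149PT non-CSCs, in HCC1937 after TPM rescaling (0.146) and without any library but replicates 1 and 3 of CSCs (up to 0.0659).

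**Figure D4:**
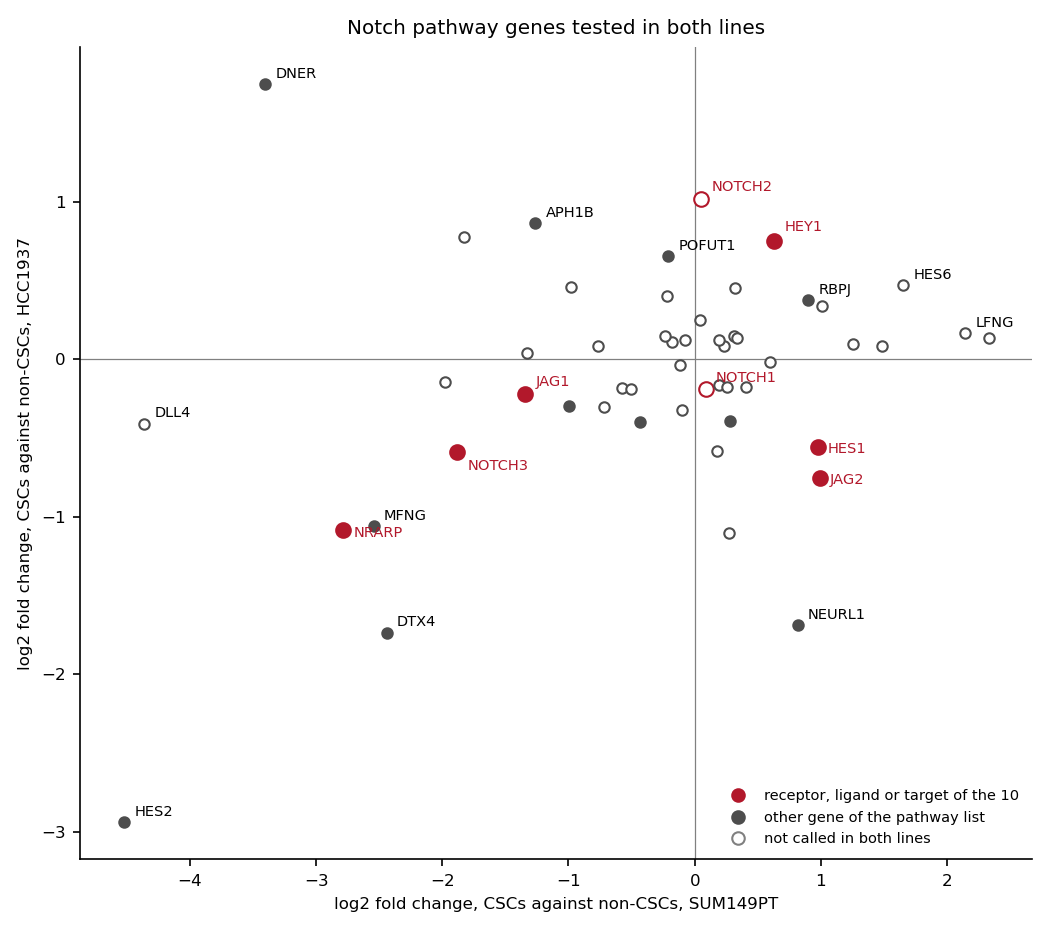
Log2 fold change of FPKM + 0.1 between CSCs and non-CSCs in SUM149PT (x axis) and HCC1937 (y axis), with 1 point for each of the Notch genes (large, red) and other pathway genes (small, grey) tested in both lines; filled points were called in both. HES2, DTX4 and MFNG lie low in both lines with NRARP and NOTCH3, while DNER lies far to the left and above 0, and JAG2, HES1 and NEURL1 lie to the right and below 0.

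Delta-like ligands other than DLL1 were low outside 1 group. DLL4, a ligand best known from endothelial tip cells, was at 0.674, 0.419 and 0.680 FPKM in CSCs and 13.9, 14.1 and 13.6 FPKM in non-CSCs of SUM149PT. HCC1937 held 0.253 to 0.411 FPKM in CSCs and 0.350 to 0.522 FPKM in non-CSCs, which overlapped. The log2 fold change was −4.36 in SUM149PT (limma adjusted p = 8.06e-06) and −0.41 in HCC1937, not called (0.192), and the interaction was −3.95. The 5 endothelial markers (PECAM1, CDH5, VWF, KDR and TEK) summed to 0.171, 0.169 and 0.177 FPKM in CSCs and 1.59, 1.83 and 1.72 FPKM in non-CSCs of SUM149PT. Of these, 3 were tested and fell, led in non-CSCs by VWF (0.701 FPKM), while TEK was listed at 0 in all 3 non-CSC libraries and KDR did not exceed 0.00973 FPKM there. VWF (0.0433 FPKM in CSCs) and CDH5 (0.0124 FPKM in CSCs) passed the minimum only through non-CSCs. In HCC1937 the sum was 0.804, 0.702 and 0.673 FPKM in CSCs against 0.974, 0.797 and 0.886 FPKM in non-CSCs, with 1 of 2 tested markers lower. That marker, CDH5, averaged 0.0706 FPKM in CSCs and 0.301 FPKM in non-CSCs, and passed the minimum only through non-CSCs. In SUM159PT it was 0.295, 0.225 and 0.345 FPKM, with CDH5 and TEK listed at 0 in all 3 libraries. The level of DLL4 in SUM149PT non-CSCs was thus several times the sum of these markers, and their part in it was not tested. DLL3, an inhibitory ligand, was not called in either line (−0.22 and 0.40, limma adjusted p = 0.545 and 0.284) and did not exceed 1.65 FPKM in any library.

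Further pathway genes with large increases in SUM149PT CSCs were LFNG, MAML3 and HES6. LFNG, a fringe glycosyltransferase, was at 1.88 to 2.44 FPKM in CSCs and 0.310 to 0.550 FPKM in non-CSCs, a log2 fold change of 2.14 (limma adjusted p = 0.000184), or 1.14 with a pseudocount of 1. MAML3, a Mastermind-like coactivator, was at 3.75 to 4.0 against 0.833 to 0.930 FPKM, a log2 fold change of 2.03 (limma adjusted p = 4.48e-06). HES6, a relative of HES1 that opposes it, was at 12.9 to 14.3 against 3.94 to 4.74 FPKM, a log2 fold change of 1.65 (limma adjusted p = 2.91e-05). All 3 CSC libraries were higher for each gene. In HCC1937 LFNG (0.17, limma adjusted p = 0.395) and HES6 (0.47, 0.188) were not called as deposited, and both were called higher with the GC trend removed (0.40, 0.037 and 0.75, 0.0136). HES6 was also called without replicate 2 of non-CSCs (0.69, limma adjusted p = 0.0415). MAML3 did not reach the minimum in HCC1937, at 0.0825 to 0.0955 FPKM in CSCs and 0.0245 to 0.0315 FPKM in non-CSCs.

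For the receptor, ligand and target with the highest mean FPKM, the genes of most similar pattern were looked up over the 15 libraries, which share their line and fraction, among 12164 genes. NOTCH3 was closest to ST5 (Pearson's r 0.983), ATG2A (0.983) and TNKS1BP1 (0.979). JAG1 was closest to SAT1, STOX2 and GCC1 (0.995 each), and HES1 to CALM2 (0.997), HBEGF (0.996) and AAGAB (0.995). HBEGF, a growth factor of the EGF family, had group means of 71.4 and 32.4 FPKM in CSCs and non-CSCs of SUM149PT, 39.7 and 64.1 FPKM in those of HCC1937 and 2.42 FPKM in SUM159PT, the same order of group means as HES1. These values describe likeness over libraries, and nothing about shared control was tested.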

How the data were processed

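The authors deposited FPKM for 33158 genes in 15 libraries (3 per group), and 0 columns were left unused. The submitters' processing notes name Bowtie2 and GRCh38, while the program that counted fragments and its annotation are not given in the sources used here. Values were taken as log2(FPKM + 0.1), and every gene whose mean over the libraries of a fit reached 0.1 FPKM was tested with limma 3.58.1 in R 4.3.3 (adjusted p of at most 0.05, Benjamini-Hochberg). CSCs were compared with non-CSCs within SUM149PT and within HCC1937 on 6 libraries each, their difference between lines (interaction) on 12 libraries, and the 4 comparisons between lines on all 15 libraries. Tables came from pandas 2.3.3, scipy 1.17.1 and numpy 2.4.6 in Python 3.11.15, and figures from matplotlib 3.10.9, and the fits were tested on simulated data.

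The alternatives tried were pseudocounts of 0.01 and 1, no minimum, a minimum mean of 1 FPKM, TPM rescaling, upper quartile scaling, quantile normalization, limma with a trend, another set of libraries in the fit, a replicate block, a strict rule, and leaving out each library. Removal of a smooth trend of each library on the GC content of transcripts (GENCODE release 29, a match for 86.9% of genes tested in SUM149PT and 86.8% in HCC1937) was chosen after seeing the data. The Notch genes and the gene lists were chosen with earlier results of these data known. Named are all 10 Notch genes, and of 50 other pathway genes DLL3, DLL4, RBPJ, those called in both lines and, in each line and direction, up to 3 called genes with the largest absolute log2 fold change and a mean of 1 FPKM or more there. Like genes are the 3 with the highest Pearson's r on log2(FPKM + 0.1) over the 15 libraries, at a mean of at least 1 FPKM.

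Limits are these. Each group has 3 libraries of unknown origin within 1 cell line, so the spread over cultures and lines is not known. FPKM hold neither depth nor counts, and values at 0 may be genes missed by the annotation. Fractions differ in epithelial and mesenchymal transcripts, and RNA levels say nothing of cleaved or surface Notch protein. SUM159PT differs from the sorted lines in total FPKM and along GC content, and some of its directions depend on scaling. Fragments shared by overlapping or near-identical genes cannot be separated.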

Additional observations from a re-analysis of the deposited data

Results flagged for a closer look

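The limma interaction term was called for 20 named genes, MAML3 among them with the reservation given at its value. It is the log2 fold change in SUM149PT minus that in HCC1937. Among the Notch genes 6 of 8 differed. JAG2 (1.74) and HES1 (1.53) were above 0 because they were higher in CSCs of SUM149PT and lower in CSCs of HCC1937. NRARP (−1.70), NOTCH3 (−1.30) and JAG1 (−1.12) were lower in CSCs of both lines, and more so in SUM149PT. NOTCH2 (−0.96) was called higher in CSCs of HCC1937 and was not called in SUM149PT as deposited. Of the 16 named pathway genes 14 were called, and 5 of them were called in opposite directions. The rule that named them picks genes with large changes, so this count is not a sample of the pathway, in which 32 of 47 genes differed, as did 61.1% of all genes tested. These were DNER (−5.15), APH1B (−2.13) and POFUT1 (−0.86), lower in CSCs of SUM149PT and higher in those of HCC1937, and NEURL1 (2.50) and DTX3L (0.67), the other way round. DLL4 (−3.95) fell in CSCs of SUM149PT and was not called in HCC1937. HES2 (−1.59), MFNG (−1.48), DTX4 (−0.71) and NEURL1B (−0.69) fell in CSCs of both lines, and further in SUM149PT. LFNG (1.98) and HES6 (1.18) rose in SUM149PT and were not called in HCC1937 as deposited. Sizes at low levels depended on the pseudocount, and with 1 in place of 0.1 MFNG went to −0.41, NEURL1B to −0.29, LFNG to 1.01 and NEURL1 to 1.66. NEURL1B also went to −0.33 after quantile normalization and −0.39 with the GC trend removed. MAML3 (1.44, or 0.70 with a pseudocount of 0.01) was called by the interaction term, but in HCC1937 it lay below the minimum, higher in 3 of 3 CSC libraries (0.0907 against 0.0272 FPKM), so its values do not establish a difference between the lines. RBPJ (0.53) rose in both and more in SUM149PT, and this difference was not called in a fit over all 15 libraries (adjusted p = 0.0649). Why the lines differ was not tested.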

How the results depend on the processing

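Most results kept their call and direction when the settings were changed. Of 1136 gene values under alternatives set beforehand, 1051 were unchanged, 64 lost a call, 5 gained 1 and 16 turned sign. Leaving out 1 library gave 735 of 767 unchanged. Under the strict rule (limma adjusted p no larger than 0.0001, with a log2 fold change of size 1 or more), the Notch genes called went to 3 of 8 in SUM149PT, 0 of 9 in HCC1937 and 3 of 8 between the CSCs of HCC1937 and SUM149PT. Over all genes the rule called 3292 of 16037 in SUM149PT and 6111 of 16373 between the CSCs. The pathway genes called went to 13 of 46 in SUM149PT and 0 of 45 in HCC1937, where 0 of all genes met the rule in limma. An unadjusted p under 0.05 was found in HCC1937 for 7 Notch genes and 17 pathway genes. The share of all genes under that limit is not given here, so these counts say nothing particular of these lists. Signs turned in SUM149PT for DLL3 (0.31 after quantile normalization). For the difference between the lines, they turned for HEY1 (0.29 with a pseudocount of 1) and FURIN (0.0127 after upper quartile scaling). Between the CSCs, NRARP turned to −0.0802 after upper quartile scaling and −0.0563 after quantile normalization. Between the non-CSCs, NOTCH1 turned to −0.0895 with TPM, −0.0441 with upper quartile and −0.0885 with quantile scaling. From SUM149PT CSCs to SUM159PT, JAG2 turned to −0.0801 with TPM, and NOTCH1 to 0.26 and NOTCH3 to 0.96 with upper quartile scaling. From HCC1937 CSCs to SUM159PT, NOTCH3 turned to −0.34 with TPM, NOTCH1 to 0.62 and HEY1 to 0.70 with upper quartile, and NOTCH1 to 0.32 and HEY1 to 1.38 with quantile scaling. Removing the GC trend, a setting chosen after seeing the data, left 86 of 104 gene values unchanged. It turned FURIN (0.12), POFUT1 (0.0301) and DLL3 (0.33) in SUM149PT, NOTCH1 (0.0529) in HCC1937, FURIN (0.28) in the difference, NRARP (−0.21) between the CSCs and HEY1 (0.78) between SUM159PT and HCC1937 CSCs. With 1 library left out, values crossed 0 for DLL3 in SUM149PT (−0.47 to 0.0217), HEY1 (−0.22 to 0.00536) and FURIN (−0.11 to 0.0397) in the difference, NRARP between the CSCs (−0.0457 to 0.19) and NOTCH3 between SUM159PT and SUM149PT CSCs (−0.0890 to 0.10). JAG1 in HCC1937 ran from −0.24 to −0.20 and was never called. The labels do not say whether equal replicate numbers pair the fractions. Deviations from the group mean correlated at 0.0880, 0.0226 and 0.0800 for equal numbers in SUM149PT, against −0.115 to 0.0374 for unequal numbers. In HCC1937 equal numbers gave −0.0777, −0.0352 and −0.00886, and CSC replicate 1 went best with non-CSC replicate 2 (0.0817). Correlations this small do not settle whether the fractions were paired. With a replicate block, 6 of 8 Notch genes stayed called in SUM149PT and 5 of 9 in HCC1937. Over all genes 11492 of 16037 and 3066 of 15582 were called with the block. In HCC1937 limma adjusted p rose to 0.107 for JAG1, 0.0619 for HEY1, 0.0975 for FURIN and 0.0719 for NEURL1B, and POFUT1 lost its call in SUM149PT (0.0557). The cause was not tested.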

Other observations

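Genes in these paragraphs were chosen after their values were seen. Of the other HES and HEY genes, 5 were tested in SUM149PT (HES2, HES4, HES6, HES7 and HEY2), and 1 rose and 3 fell in CSCs, where 33.3% of all genes tested rose and 41.5% fell. In HCC1937 5 were tested, with HEYL in place of HEY2, and 0 rose and 2 fell, beside 10.3% and 15.3% of all genes. HES7, a clock gene of the embryo, averaged 4.999 FPKM in CSCs and 18.1 FPKM in non-CSCs of SUM149PT (log2 fold change −1.83, limma adjusted p = 0.000103, lower in 3 of 3 libraries). In HCC1937 HES7 averaged 1.37 FPKM in CSCs and 0.767 FPKM in non-CSCs, a difference that was not called. It averaged 19.9 FPKM in SUM159PT, close to HES1 there. HES4 averaged 42.0 and 34.8 FPKM in CSCs and non-CSCs of SUM149PT, which was not called (0.27, limma adjusted p = 0.219). In HCC1937 HES4 averaged 7.07 FPKM in CSCs and 15.8 FPKM in non-CSCs (−1.11, limma adjusted p = 0.022). HEY2 stayed below 1 FPKM in every group and fell in CSCs of SUM149PT (−1.41, limma adjusted p = 0.00179), opposite to HEY1. HES5, a target in nerve progenitors, was listed at 0 in all 15 libraries.

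Of 4 genes that limit Notch or turn over its receptors, 2 rose and 1 fell in CSCs of SUM149PT, and 0 rose and 1 fell in HCC1937 (all genes as above). NUMB, which draws receptors into the cell for breakdown, averaged 29.2 FPKM in CSCs and 10.4 FPKM in non-CSCs of SUM149PT (1.48, limma adjusted p = 6.9e-06, higher in 3 of 3 libraries). In HCC1937 NUMB was not called (20.1 against 19.0 FPKM; 0.08, limma adjusted p = 0.433). FBXW7, which marks the intracellular domain for degradation, averaged 3.68 FPKM in CSCs and 14.8 FPKM in non-CSCs of SUM149PT (−1.98, limma adjusted p = 4.82e-06). FBXW7 was not called in HCC1937 (−0.14, limma adjusted p = 0.19) and averaged 0.137 FPKM in SUM159PT. ITCH, a ubiquitin ligase, averaged 16.9 FPKM in CSCs and 25.4 FPKM in non-CSCs of HCC1937 (−0.59, limma adjusted p = 0.00261) and was not called in SUM149PT (0.18, limma adjusted p = 0.0604). NUMBL, a relative of NUMB, was higher in CSCs of SUM149PT (0.32, limma adjusted p = 0.00762) and not called in HCC1937 (0.45, limma adjusted p = 0.0614). In the nuclear complex MAML2 (1.26, limma adjusted p = 4e-05), the acetyltransferase KAT2B (2.33, limma adjusted p = 6.47e-05) and SNW1 (0.59, limma adjusted p = 0.000251) rose in SUM149PT CSCs together with RBPJ and MAML3. In SUM159PT, RBPJ averaged 0.987, ADAM10 0.806, ADAM17 0.960 and MIB1 0.518 FPKM. APH1A (172 FPKM) and PSENEN (88.6), both gamma-secretase subunits, FURIN (43.5) and RFNG (50.1) averaged more there than in any sorted group. Of 47 pathway genes tested, 14 were higher and 28 lower in SUM159PT than in SUM149PT CSCs. Against HCC1937 CSCs the counts were 13 and 31. Over all 16373 genes, 4638 were higher and 8733 lower against SUM149PT CSCs, and 4515 and 9369 against HCC1937 CSCs. RBPJ (38.0% G and C), ADAM10 (38.3%), ADAM17 (38.5%) and MIB1 (37.7%) are poor in GC. PSENEN (51.6%), APH1A (55.9%), FURIN (61.7%) and RFNG (66.75%) are richer, and the part of GC content in this pattern was not tested.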
